A study of Mus musculus with 3 samples.

Results

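The 88 mouse genes described here encode parts of the mitochondrial respiratory chain and carry their code in the nucleus. They were taken by symbol from the 32285 genes of the count matrices, as all genes whose names start with Ndufa, Ndufb, Ndufc, Ndufs, Ndufv, Uqcr, Atp5, Sdha, Sdhb, Sdhc or Sdhd, or with Cox followed by a digit from 4 to 8, without Ndufa4l2, the Ndufaf genes and processed copies. The rule itself used no measured value, although the set was chosen with earlier results of these data known. Sorted by symbol, 37 belonged to complex I, 8 to complex II, 8 to complex III, 18 to complex IV and 17 to complex V. Of the 88, 84 were subunits and 4 were Sdhaf1 to Sdhaf4, assembly factors of complex II that the letters of the rule take in. All 88 were protein coding, and they lay on 19 chromosomes.

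The respiratory chain sits in the inner mitochondrial membrane. Complexes I and II feed electrons into the chain, complex III passes them to cytochrome c, and complex IV hands them to oxygen. Complexes I, III and IV pump protons across the membrane, and complex V, the ATP synthase, uses the return of those protons to make ATP. The mitochondrial genome encodes a small core of subunits, and the nucleus encodes all others. Skeletal muscle, rich in mitochondria, uses the complex IV isoforms Cox6a2, Cox7a1 and Cox8b beside or in place of Cox6a1, Cox7a2 and Cox8a, which most other tissues use. The former are called muscle isoforms here, a name that does not mean they are found in muscle alone. Skin over the mouse back lies on a thin sheet of muscle, the panniculus carnosus, so that a wound section can hold both tissues.

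The study placed sections of wounded dorsal skin from C57BL/6J mice, adult males according to the methods, on Visium slides, which catch polyadenylated RNA on spots that each cover several cells. The wounds were full-thickness excisions, and fresh frozen tissue gave 1 section for Day 3, 1 for Day 7 and 1 for Day 14. No section of unwounded skin is described here, and the methods give an n of 1 for this tissue without naming the unit counted. With 1 section per day, no test between days was possible, and every interval given is a 95% interval for counting error only.

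The submitters' position tables marked 664, 549 and 697 spots as under tissue on Days 3, 7 and 14, holding 1772259, 4442962 and 4611723 UMIs (unique molecular identifiers, each standing for 1 captured RNA molecule). Marked spots held medians of 1513, 6687 and 4827 UMIs, in the same order. All 4992 spot barcodes occur in all 3 matrices, since the slide layout is the same for each. The fibroblast, epidermis and skeletal muscle marker lists were detected in full in each section, with 8, 10 and 12 genes. In addition, summed skeletal muscle markers stood at 45050, 59051 and 68043 CPM (UMIs divided by all UMIs of the same spots, times 1000000) on Days 3, 7 and 14, slow fibre markers at 1134, 231 and 288 CPM, and fibroblast markers at 50095, 70077 and 36410 CPM. Muscle spots were defined as those in which Acta1 plus Ckm, the skeletal actin and the muscle creatine kinase, made up at least 1% of UMIs. This threshold took in 425, 491 and 681 spots, or 64.0, 89.4 and 97.7% of those marked on Days 3, 7 and 14. Hence a second threshold of 5%, chosen after the data were seen, was used for muscle-rich spots, which numbered 115, 53 and 102.

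The promoters of 4 isoform genes of complex IV are given first, because these isoforms are among the members described most closely in muscle-rich spots. Cox6a1 and Cox8a are common isoforms, and Cox7a1 and Cox8b are muscle isoforms; Cox6a2 had no window in the table. Each run covers 250 bases before and 50 bases after the RefSeq transcription start on GRCm38.p6, in the direction of the gene. These are chr5:115348909-115349208 on the minus strand for Cox6a1, chr19:7217567-7217866 on the minus strand for Cox8a, chr7:30183921-30184220 on the plus strand for Cox7a1 and chr7:140900397-140900696 on the minus strand for Cox8b. Capitals mark the motif of NRF1, a regulator of nuclear genes for mitochondria, and the ETS-family motif read by GABP.
Cox6a1: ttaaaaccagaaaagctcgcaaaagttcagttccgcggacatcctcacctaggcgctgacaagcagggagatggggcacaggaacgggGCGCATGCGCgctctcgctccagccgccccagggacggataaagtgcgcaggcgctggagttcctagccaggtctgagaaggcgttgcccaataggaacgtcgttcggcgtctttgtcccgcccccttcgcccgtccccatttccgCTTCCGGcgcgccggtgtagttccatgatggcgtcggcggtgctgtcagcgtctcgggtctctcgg
Cox8a: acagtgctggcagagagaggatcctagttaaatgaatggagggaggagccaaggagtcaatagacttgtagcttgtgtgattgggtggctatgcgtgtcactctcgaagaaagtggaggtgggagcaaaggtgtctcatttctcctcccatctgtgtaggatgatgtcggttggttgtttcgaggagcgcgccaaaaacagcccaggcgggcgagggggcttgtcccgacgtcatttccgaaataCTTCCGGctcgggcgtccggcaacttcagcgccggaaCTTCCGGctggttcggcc
Cox7a1: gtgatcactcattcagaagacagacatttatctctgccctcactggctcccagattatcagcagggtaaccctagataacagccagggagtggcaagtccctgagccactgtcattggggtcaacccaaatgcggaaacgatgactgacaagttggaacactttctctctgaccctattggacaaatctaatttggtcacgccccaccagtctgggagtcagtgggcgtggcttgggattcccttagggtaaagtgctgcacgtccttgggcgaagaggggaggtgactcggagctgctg
Cox8b: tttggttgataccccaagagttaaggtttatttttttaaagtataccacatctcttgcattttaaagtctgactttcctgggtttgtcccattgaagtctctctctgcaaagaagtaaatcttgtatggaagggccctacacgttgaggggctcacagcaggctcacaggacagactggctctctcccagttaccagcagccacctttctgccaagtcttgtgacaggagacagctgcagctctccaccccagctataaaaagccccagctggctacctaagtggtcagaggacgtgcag
The NRF1 motif, searched as GCGCATGCG on both strands, lay in the Cox6a1 window, where the capitals GCGCATGCGC hold it once on each strand, overlapping. The ETS motif, searched as CCGGAAG on both strands, occurred once in the Cox6a1 window and at 2 places in the Cox8a window, each time as its reverse complement. None of the 5 motifs searched was found in the windows of Cox7a1, Cox8b or Cox7a2.

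Of the 88 members, 72 had a window in the RefSeq table. The NRF1 motif was present in 11.1% of these members against 1.95% of all 27025 genes with a window of the same length, and the ETS motif in 27.8% against 9.93%. AAGATGGCG, the motif of YY1, was present in 9.72% of members against 1.64% of all genes. TCAAGGTCA, the motif of the ERR nuclear receptors, was present in 2.78% against 0.466%, in Atp5g3 and Sdhd. CTAAAAATA, a motif of the muscle regulator MEF2, was found in 0 of the 72 members and in 0.588% of all genes. With a share this low among all genes, finding none in 72 members shows no difference. A match describes the letters of a window and does not show that a factor was bound there.

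In the marked spots of Days 3, 7 and 14, the members together held 52275, 121986 and 124766 UMIs. Their level was 29496 CPM at first (29244 to 29750), then 27456 CPM (27302 to 27611), and last 27054 CPM (26904 to 27205). The level was spread over many genes, with a median member at 270, 251 and 241 CPM, and the 10 highest members held 30.1, 31.3 and 30.6% of the members' UMIs. Atp5e, the small epsilon subunit of ATP synthase, was highest in each section at 1376, 1255 and 1229 CPM. These libraries read transcript ends, so that a CPM was not divided by transcript length. The members Cox7b2 and Cox8c, both known from testis, had no UMI in any marked spot, which allows up to 3 UMIs in each section.

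By complex, the ATP synthase genes summed to 9915, 8840 and 9053 CPM and the complex I genes to 9107, 8660 and 8665 CPM on Days 3, 7 and 14. The complex IV genes stood at 6869, 6358 and 6071 CPM, those of complex III at 2990, 2970 and 2688 CPM, and those of complex II, the smallest complex, at 616, 627 and 576 CPM. The order of the 5 complexes was thus the same on each day. The complex II sum takes in the assembly factors Sdhaf1 to Sdhaf4 beside its 4 subunits, which were not summed alone. In complex I, Ndufa4 was highest at 935, 880 and 938 CPM. Its protein has since been placed with complex IV, although the symbol puts it here. Ndufa3, an accessory subunit, followed at 458, 454 and 409 CPM. In complex II, Sdha, the flavoprotein that oxidizes succinate, stood at 168, 187 and 171 CPM. In complex III, Uqcr11 stood at 551, 657 and 558 CPM and Uqcrq, another small subunit, at 665, 495 and 452 CPM. In complex IV, Cox4i1, the common form of subunit 4, stood at 1086, 928 and 814 CPM and Cox6c at 739, 880 and 806 CPM. Finally, Atp5b, the catalytic beta subunit of ATP synthase, stood at 938, 1174 and 1147 CPM.

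**Figure D1:**
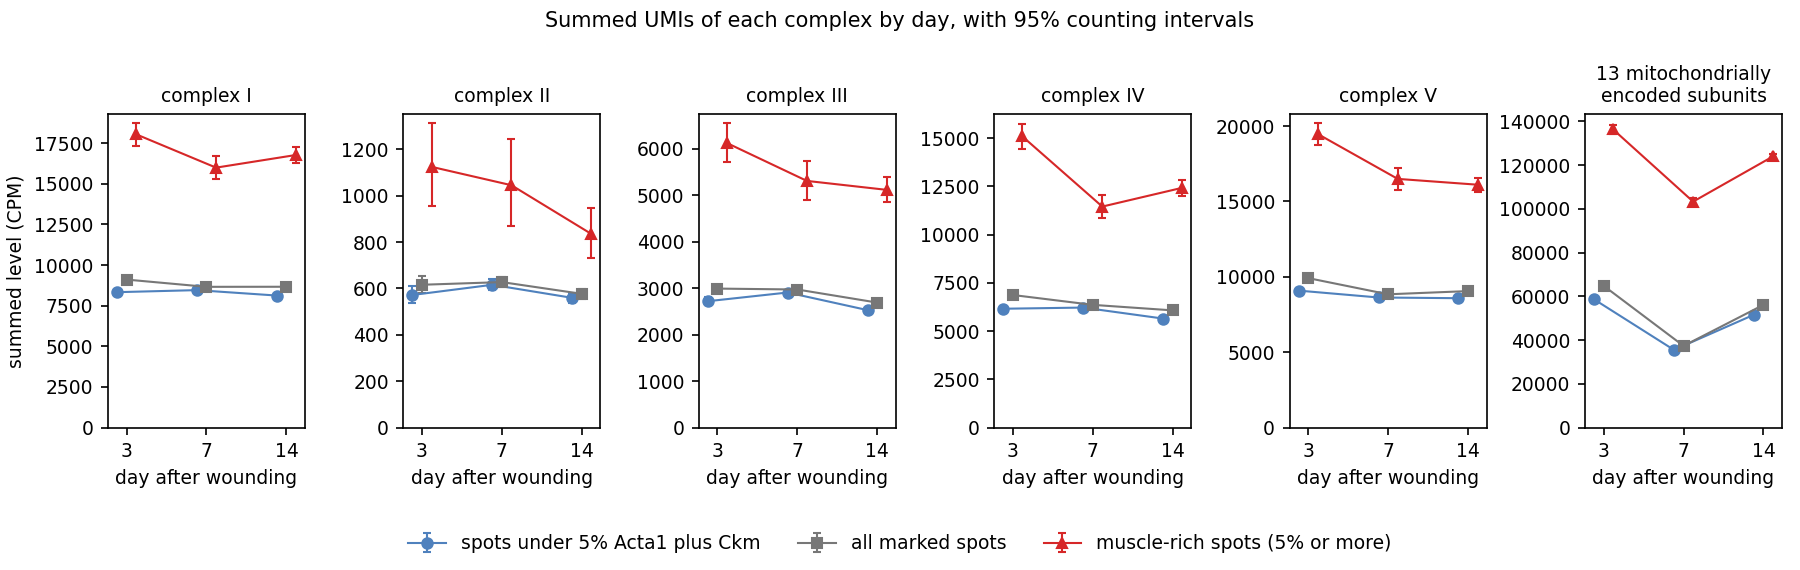
The y axes give the summed level of the members of each complex, and of the 13 mitochondrially encoded subunits, in CPM, and the x axes the day after wounding; each panel has its own scale. Points are pooled spots of 1 section with 95% counting intervals: circles for spots with under 5% Acta1 plus Ckm, squares for all marked spots, triangles for muscle-rich spots. The triangles lie above the other points in each panel, as for complex IV at 15088, 11451 and 12425 CPM, while the squares of the 5 complexes change little between days.

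Between days, the summed level of the members moved little. Over all marked spots, Day 7 over Day 3 had a log2 ratio of -0.10 (-0.12 to -0.09) and a fold of 0.931. Day 14 over Day 3 had -0.12 (-0.14 to -0.11) and a fold of 0.917, and Day 14 over Day 7 had -0.02 (-0.03 to -0.01) and 0.985. In spots with several cells, fewer cells of a type and less RNA per cell cannot be told apart. The median log2 ratio over the members tested was -0.06, -0.10 and -0.04 for these 3 pairs, beside 0.04, 0.18 and 0.13 over all genes tested. The median gene tested held far fewer UMIs than the median member, 196 against 1615 for Day 7 over Day 3, so that counting error alone spreads the ratios of all genes more widely.

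Few members reached a 1.5-fold ratio, the size used here to call a gene higher or lower, given at least 50 UMIs over the pair. On Day 7 over Day 3, 2 of 85 members were called higher, beside 19.5% of all genes tested, and 5 were called lower, beside 15.5%. On Day 14 over Day 3, 1 of 85 was called higher, beside 28.4%, and 3 lower, beside 14.3%. On Day 14 over Day 7, 2 of 86 were called higher, beside 23.4%, and 2 lower, beside 15.3%. These comparisons share sections pairwise and are not independent of each other.

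The 5 members called lower on Day 7 were Atp5g1, Atp5g3 and all 3 muscle isoforms of complex IV. Atp5g1, a gene for the membrane subunit c of ATP synthase, stood at 535, 248 and 473 CPM on Days 3, 7 and 14. Day 7 over Day 3 had a log2 ratio of -1.11 (-1.24 to -0.98) for this gene, and Day 14 over Day 7 had 0.93 (0.83 to 1.04). Atp5g3, a second gene for the same subunit, stood at 591, 361 and 393 CPM. Against Day 3 its log2 ratio was -0.71 on Day 7 and -0.59 on Day 14. Cox6a2 stood at 658, 410 and 620 CPM, Cox8b at 535, 339 and 398 CPM and Cox7a1 at 210, 140 and 201 CPM. Their log2 ratios for Day 7 over Day 3 were -0.68, -0.66 and -0.59, and Cox6a2 was called higher again on Day 14 over Day 7 at 0.60 (0.51 to 0.68). Cox8b and Cox7a1 were lowest on Day 7 as well, but their ratios of 0.23 and 0.52 for Day 14 over Day 7 were under 1.5-fold.

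The members called higher on Day 7 over Day 3 were expressed at a low level. Cox6b2, an isoform known from testis, had 7, 47 and 51 UMIs on Days 3, 7 and 14, and Cox4i2, an isoform of subunit 4 known from lung, had 15, 74 and 32 UMIs. Cox4i2 was thus also called lower on Day 14 over Day 7, with a log2 ratio of -1.26 (-1.91 to -0.65), as was Sdhaf1 at -0.72 (-1.08 to -0.36). The others called lower on Day 14 over Day 3 were Sdhd, a membrane anchor of complex II, at -0.64 (-1.0 to -0.28) and Ndufv3, a subunit of the NADH-binding arm of complex I, at -0.63 (-0.79 to -0.47). Cox8a, the common partner of Cox8b, moved the other way from it, at 365, 547 and 417 CPM, with a log2 ratio of 0.58 for Day 7 over Day 3 (0.46 to 0.71).

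Without muscle spots, the summed members stood at 22424, 23264 and 19883 CPM on Days 3, 7 and 14, with intervals of 22150 to 22701, 22969 to 23562 and 19225 to 20558. Day 7 over Day 3 then had a log2 ratio of 0.05 (0.03 to 0.08), Day 14 over Day 3 had -0.17 (-0.22 to -0.12), and Day 14 over Day 7 had -0.23 (-0.28 to -0.17). These values depend on which spots enter: over all spots of the slide, Day 7 over Day 3 was 0.89 and Day 14 over Day 7 was -1.02, and with a 2% threshold for muscle, Day 14 over Day 3 turned to 0.018. The Day 14 values rest on 16 spots with 173468 UMIs, and epidermis markers in this class of spots summed to 11456, 1866 and 35638 CPM on Days 3, 7 and 14; the part of this difference in tissue was not tested. With muscle-rich spots alone left out, the members stood at 26863, 26824 and 25437 CPM, and the log2 ratios were -0.00, -0.08 and -0.08. The 20 spots just inside the 1% threshold held 23362, 22822 and 22869 CPM on Days 3, 7 and 14. Just outside it, 20, 20 and 14 spots with at least 500 UMIs held 23299, 24479 and 19883 CPM.

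In spots under 1%, 3 of 83 members were called higher on Day 7 over Day 3, beside 16.5% of all genes tested, and 2 lower, beside 25.6%. Ndufa13, a membrane-arm subunit of complex I also known as GRIM-19, had the clearest difference, at 196, 349 and 138 CPM on Days 3, 7 and 14 and a log2 ratio of 0.83 (0.58 to 1.08) between the first pair. Atp5md, a small ATP synthase subunit, followed at 0.65 (0.40 to 0.91). The 2 called lower were Atp5g1 at -0.65 (-0.89 to -0.42) and Ndufs6, a zinc-binding subunit of complex I, at -0.62 (-0.87 to -0.38). With TMM scaling, an alternative that sets the libraries to a common trimmed mean of gene ratios, 7 members were higher and 0 lower. On Day 14 over Day 3, 2 of 81 were called higher, beside 19.6%, and 15 lower, beside 33.3%. On Day 14 over Day 7, 1 of 81 was called higher, beside 22.1%, and 17 lower, beside 34%. TMM scaling raised these 15 and 17 to 25 and 34. The lowest on Day 14 included Cox8b, with 10 UMIs there, at -1.41 against Day 3 (-2.50 to -0.50), and Ndufb10 at -1.12 (-1.92 to -0.41).

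**Figure D2:**
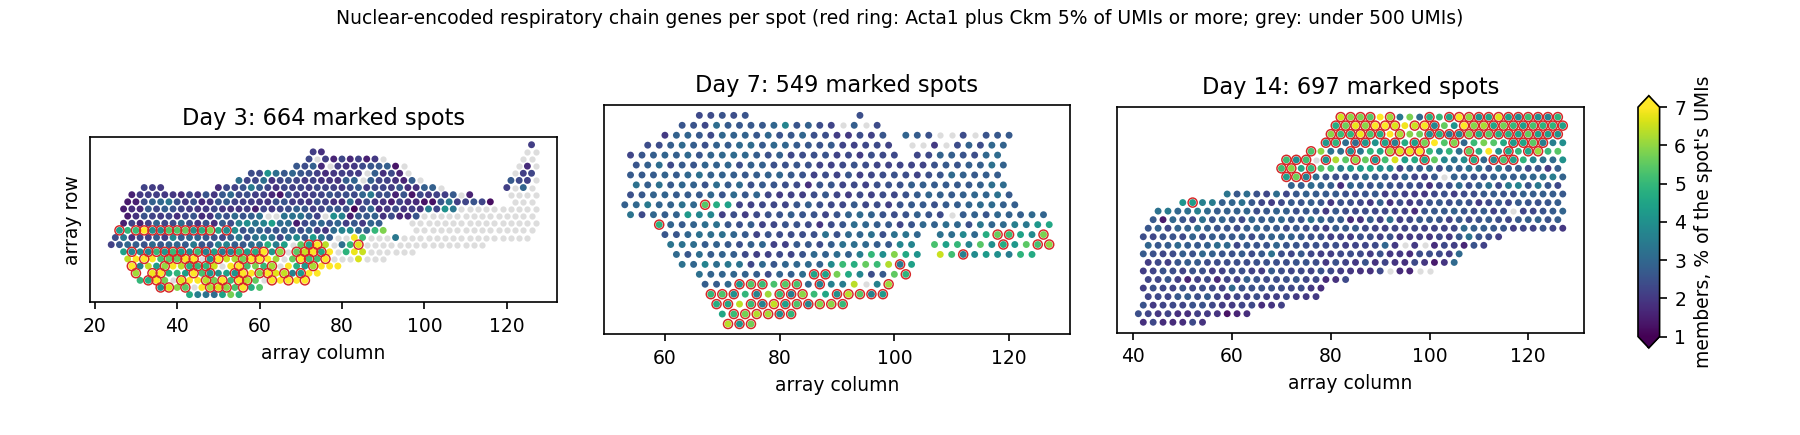
Each point is a marked spot at its array column and row (no unit), and its colour gives the members' UMIs as a percentage of the UMIs of the spot; grey spots held under 500 UMIs and red rings mark spots with 5% or more Acta1 plus Ckm. The ringed spots lie in bands at 1 side of the Day 3, Day 7 and Day 14 sections, and most of the high member shares lie within or beside those bands.

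Across space, the members' level was higher where muscle was. Muscle-rich spots held 59865, 50302 and 51266 CPM on Days 3, 7 and 14, with intervals of 58596 to 61154, 49039 to 51589 and 50444 to 52099. All other marked spots held 26863, 26824 and 25437 CPM, so that the fold was 2.23, 1.87 and 2.01. As log2 ratios these were 1.16 (1.12 to 1.19), 0.91 (0.87 to 0.94) and 1.01 (0.99 to 1.04). Spots between the thresholds, from 1% to under 5%, are part of these other marked spots and held 37020, 27925 and 25669 CPM. Spots under 1%, the rest of them, held 22424, 23264 and 19883 CPM. With the 1% threshold the log2 ratios of muscle over other spots were 0.91, 0.30 and 0.46. Counted over all spots of the slide, marked or not, the Day 7 value turned to -0.38, while Day 3 and Day 14 stayed above 0 at 1.07 and 0.59.

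By gene, 72 of 83 members were called higher in muscle-rich spots on Day 3, beside 13.3% of all genes tested, 63 of 84 on Day 7, beside 11.4%, and 66 of 84 on Day 14, beside 8.66%. Conversely, 4, 5 and 5 members were called lower, beside 61.5, 55.8 and 66.3%. Cox6a1, Cox8a and Sdhaf1 were among these on all 3 days, with Sdhaf2 on Day 3, Cox4i2 and Cox7a2l on Day 7, and Sdhaf2 and Cox6b2 on Day 14. Some of these calls rest on few UMIs in muscle-rich spots, as for Cox4i2 with 0 on Day 7 and Cox6b2 with 2 on Day 14. Among all members tested, 2, 3 and 2 had an interval wholly below 0 on Days 3, 7 and 14. The median log2 ratio of the members tested was 1.08, 0.79 and 0.94, whereas that of all genes tested was -1.04, -0.73 and -1.05. With the 1% threshold the counts were 66 of 83 higher on Day 3, beside 11%, 14 of 84 on Day 7, beside 18.6%, and 30 of 84 on Day 14, beside 30.8%. On Days 7 and 14 these shares lay near the background. Members called lower at 1% numbered 3, 0 and 1, beside 35.7, 9.82 and 17.2%, and were Cox6a1, Cox8a and Sdhaf2 on Day 3 and Sdhaf4 on Day 14. Depth differed as well, since the median muscle-rich spot held 1145, 1800 and 2850 UMIs and the median other spot 1615, 7454 and 5615; its part in the result was not tested.

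All 5 complexes were higher in muscle-rich spots. The complex IV genes stood at 15088, 11451 and 12425 CPM there, with log2 ratios of 1.29 (1.23 to 1.36), 0.88 (0.80 to 0.96) and 1.14 (1.09 to 1.19) on Days 3, 7 and 14. The complex I genes had 1.12, 0.92 and 1.05, those of complex III 1.17, 0.87 and 1.02, and those of complex V 1.10, 0.94 and 0.91. Complex II had 0.98 (0.72 to 1.22), 0.76 (0.49 to 1.02) and 0.58 (0.38 to 0.77), with wider intervals from fewer UMIs. These complex II values include the assembly factors Sdhaf1 to Sdhaf4, and the values of its subunits alone were not computed. Among single subunits, Atp5e had log2 ratios of 1.26, 1.04 and 1.27 and Cox4i1 0.84, 0.73 and 0.85. Ndufa13 had 1.92, 1.3 and 1.52, and Ndufa5, a small subunit of the matrix arm of complex I, 1.84, 1.5 and 1.61. In contrast, Atp5d, the delta subunit of ATP synthase, had 0.19, 0.47 and 0.42 and was under 1.5-fold each day.

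The muscle in these spots was not the same on each day. In muscle-rich spots, slow fibre markers summed to 3811, 192 and 135 CPM on Days 3, 7 and 14, fast fibre markers to 82539, 96784 and 110185 CPM, and markers of regenerating fibres to 42.4, 1488 and 305 CPM. The members in those spots were lower on Day 7 than on Day 3, at a log2 ratio of -0.25 (-0.30 to -0.20), and Day 14 was likewise lower than Day 3 at -0.22 (-0.26 to -0.19). Between Day 14 and Day 7 the log2 ratio was 0.03 (-0.02 to 0.07). The part of the fibre types in this was not tested.

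**Figure D3:**
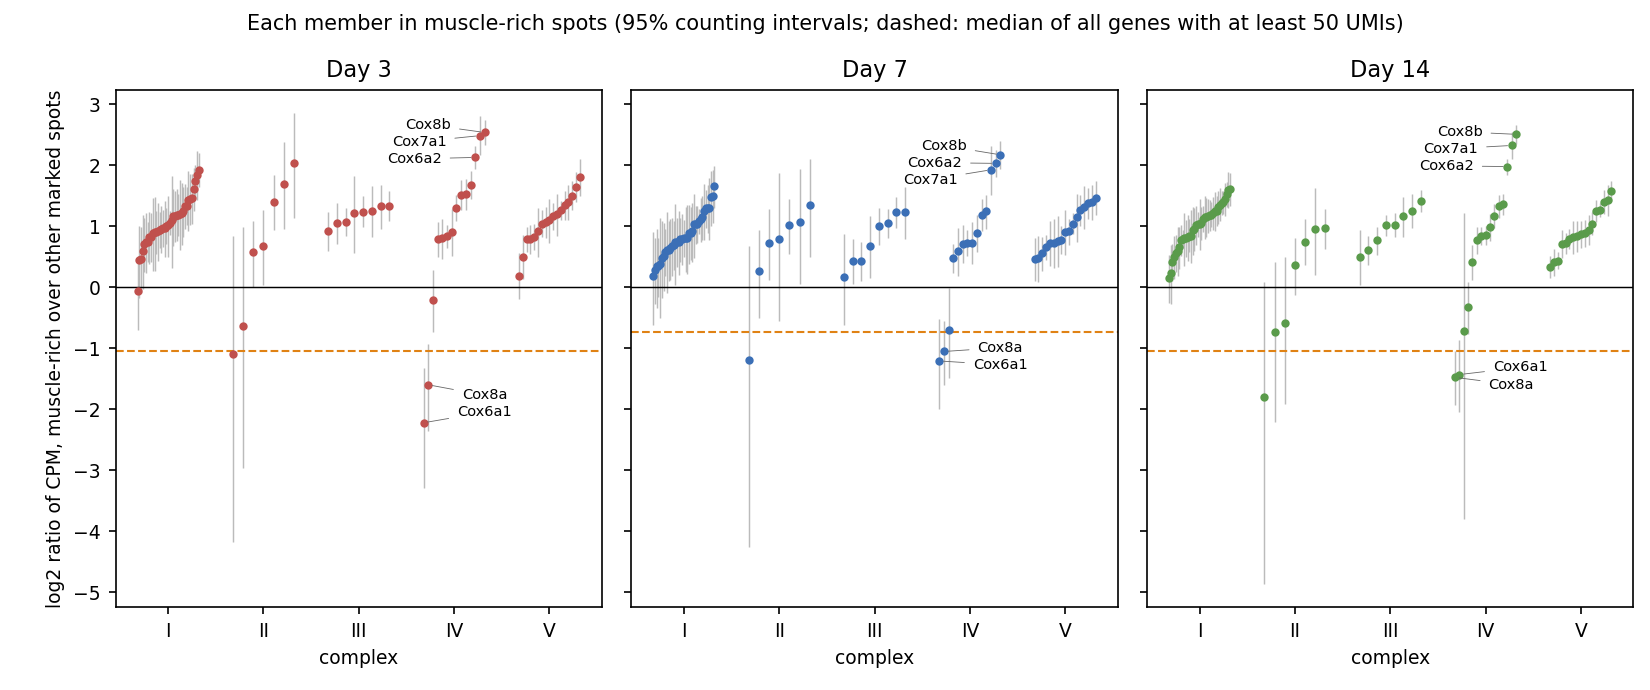
Each point is 1 member with at least 50 UMIs and at least 1 in each class, the y axis gives the log2 ratio of its CPM in muscle-rich over other marked spots with its 95% counting interval, and the x axis gives the complex, with members sorted by ratio within each. Most points lie above 0 on Days 3, 7 and 14, while Cox6a1 and Cox8a lie below -1 each day; the dashed lines at -1.04, -0.73 and -1.05 are the medians of all genes tested.

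Among the complex IV isoforms, the muscle forms were all higher in muscle-rich spots, and the common forms were split. Cox6a2, with Ensembl identifier ENSMUSG00000030785 at chr7:128205435-128206387, stood at 2270, 1546 and 2064 CPM in muscle-rich spots on Days 3, 7 and 14, and its log2 ratio against the other marked spots was 2.13, 2.03 and 1.98. Cox8b had 2248, 1396 and 1749 CPM and log2 ratios of 2.54, 2.17 and 2.51. Cox7a1 had 863, 493 and 803 CPM and log2 ratios of 2.49, 1.93 and 2.33. Thus all 3 muscle isoforms were higher by more than the median member on each day.

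Of the common isoforms, Cox6a1 and Cox8a were lower in muscle-rich spots, whereas Cox7a2 was not. Cox6a1 stood at 70.7, 142 and 90.0 CPM there, with log2 ratios of -2.22, -1.21 and -1.43. Cox8a stood at 127, 267 and 156 CPM, with log2 ratios of -1.60, -1.05 and -1.48. Cox7a2 was at 488, 468 and 402 CPM, with log2 ratios of 0.91, 0.59 and 0.41. Cox7a2l, a related member, had -0.20, -0.71 and -0.32. At the 1% threshold, Cox6a1 and Cox8a were called lower on Day 3 alone, at -0.93 and -1.02.

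Within the pairs, 32.1 (17.2 to 67.6), 10.9 (6.61 to 19.1) and 22.9 (15.5 to 35.4) UMIs of Cox6a2 were counted per UMI of Cox6a1 in the muscle-rich spots of Days 3, 7 and 14. In all marked spots the ratio was 2.13, 1.27 and 2.66. Cox8b per Cox8a was 17.7, 5.22 and 11.2 in muscle-rich spots and 1.47, 0.619 and 0.954 in all marked spots. Cox7a1 per Cox7a2 was 1.77, 1.05 and 2.0 in muscle-rich spots and 0.757, 0.443 and 0.651 in all marked spots. The 3 muscle isoforms summed, per UMI of the 3 common ones, gave 7.85 (6.34 to 9.79), 3.91 (3.15 to 4.90) and 7.13 (6.11 to 8.35) in muscle-rich spots. The same quantity was 1.09, 0.684 and 1.01 in the other marked spots, and 0.476, 0.326 and 0.313 in spots under 1%. The odds ratios of muscle-rich to other spots were 7.22 (5.77 to 9.11), 5.72 (4.58 to 7.19) and 7.04 (6.0 to 8.30). No marked spot with at least 500 UMIs was free of Acta1 plus Ckm, whose lowest share in such spots was 0.175, 0.553 and 0.674% on the 3 days. The source of this RNA in spots with a low share was not tested.

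**Figure D4:**
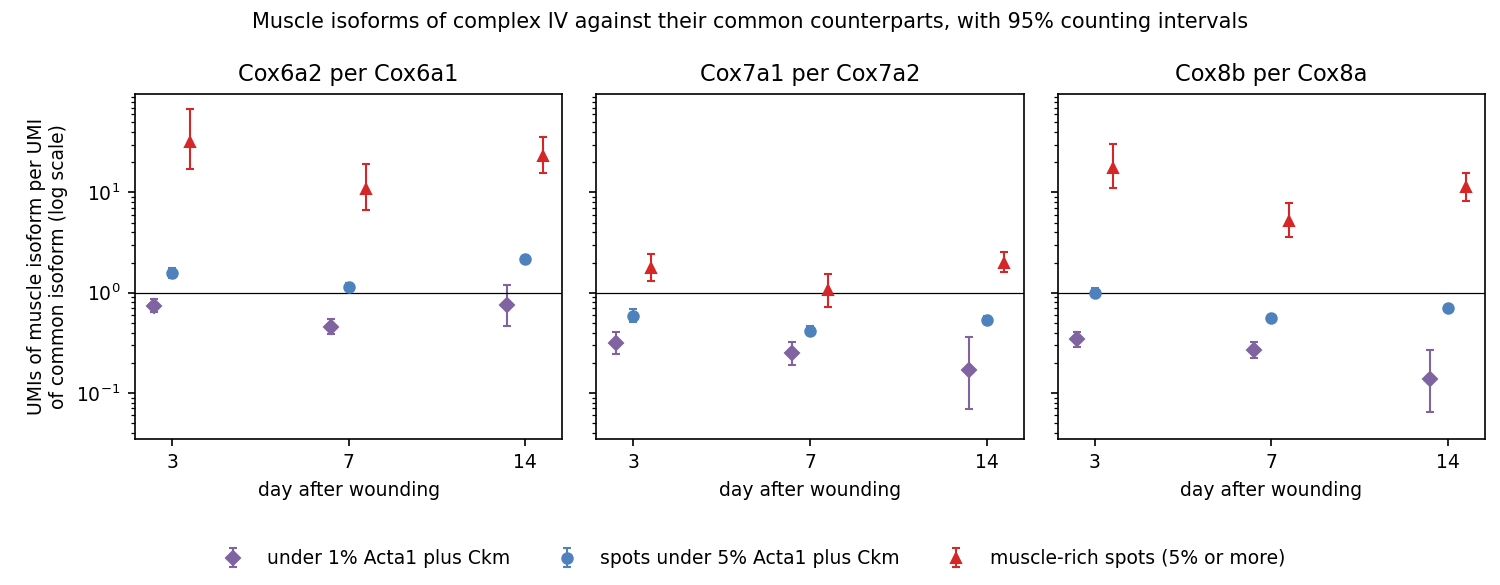
The y axis, on a log scale, gives the UMIs of the muscle isoform per UMI of the common isoform for 3 pairs, and the x axis the day after wounding; diamonds are spots under 1% Acta1 plus Ckm, circles spots under 5% and triangles muscle-rich spots, each with its 95% counting interval. The triangles lie above the circles and diamonds in each panel, with Cox6a2 per Cox6a1 at 32.1, 10.9 and 22.9, and they are lowest on Day 7.

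The remaining isoform pairs were nearly all of the common form. Cox4i2 made up 0.773, 1.76 and 0.846% of the UMIs of both subunit 4 genes on Days 3, 7 and 14 (exact binomial intervals 0.433 to 1.27, 1.39 to 2.21 and 0.579 to 1.19), and in muscle-rich spots it had 2, 0 and 0 UMIs. Cox6b2 made up 1.0, 2.20 and 2.78% of the UMIs of both subunit 6b genes. On Day 3 all 7 of its UMIs lay outside muscle-rich spots.

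Subunit c of ATP synthase, the proton-carrying ring, is encoded by 3 nuclear genes whose mature proteins are identical. Atp5g1 supplied 35.4% (33.5 to 37.2), 25.3% (24.0 to 26.6) and 37.5% (36.2 to 38.7) of their UMIs on Days 3, 7 and 14. Atp5g2 supplied 25.6, 37.9 and 31.4%, and Atp5g3 39.1, 36.8 and 31.1%. Atp5g1 thus had the highest share on Day 14, above the intervals of the other two. On Day 3 the intervals of Atp5g3 and Atp5g1 met at 37.2, and on Day 7 those of Atp5g2 and Atp5g3 overlapped (36.4 to 39.3 and 35.4 to 38.2). Outside muscle-rich spots the Atp5g1 share was 33.7, 25.1 and 36.6%, so that the lower Day 7 share was also present there. In muscle-rich spots it was 44.2, 29.5 and 44.2%. Atp5g2 was the one whose log2 ratio in muscle-rich over other spots was under 1.5-fold on Day 3 and Day 7, at 0.50 and 0.47.

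**Figure D5:**
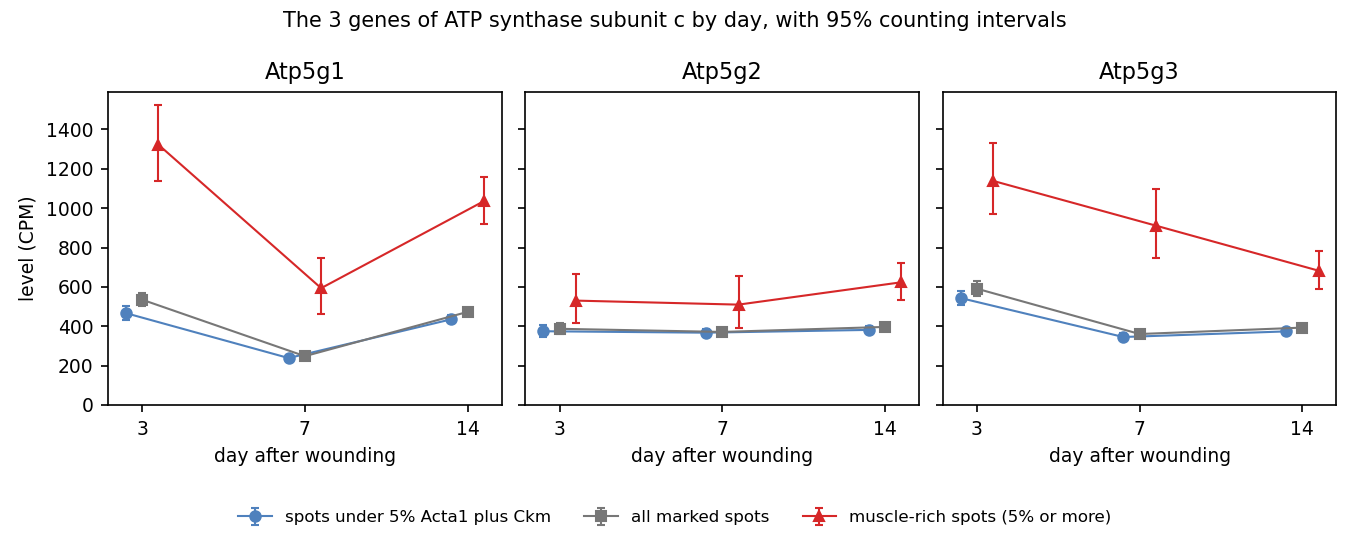
The y axis gives the level of each subunit c gene in CPM and the x axis the day after wounding; circles are spots under 5% Acta1 plus Ckm, squares all marked spots and triangles muscle-rich spots, with 95% counting intervals. Atp5g1 was lowest on Day 7 in all 3 classes, whereas Atp5g2 stayed between 371 and 397 CPM over all marked spots.

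The 13 subunits encoded in mitochondria, which are not members, were on a different course. They stood at 64827, 37317 and 56093 CPM in all marked spots, and Day 7 over Day 3 had a log2 ratio of -0.80 (-0.81 to -0.79), while Day 14 over Day 7 had 0.59 (0.58 to 0.60). Accordingly, 0.455, 0.736 and 0.482 member UMIs were counted per mitochondrial UMI on Days 3, 7 and 14. In spots under 1% the ratio was 0.510, 1.13 and 0.399, and in muscle-rich spots 0.439, 0.487 and 0.413. The Day 7 ratio was the highest of the 3 days in each of these classes. The mitochondrial UMIs are part of the total that sets CPM; with them taken out of the total, Day 7 over Day 3 had a log2 ratio of -0.15 for the members, and Day 14 over Day 7 had 0.00714, which turns its sign. In muscle-rich spots, 12 of 12 mitochondrial genes tested were called higher on each of the 3 days.

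Related gene lists were compared in the same way; among all genes tested, 13.3, 11.4 and 8.66% were called higher in muscle-rich spots on Days 3, 7 and 14, and 61.5, 55.8 and 66.3% lower. Of the 13 citric acid cycle genes, 9, 6 and 9 were called higher in muscle-rich spots on Days 3, 7 and 14, and 0, 2 and 0 lower. Of the 10 electron carriers and transporters, such as cytochrome c and the ADP/ATP exchangers, 6, 5 and 6 were higher and 1, 2 and 1 lower. Assembly factors, which help to build the complexes but are no part of them, were mixed, with 7 higher and 3 lower of 17 tested on Day 3, 8 and 13 of 35 on Day 7, and 14 and 12 of 38 on Day 14. Of the regulators of mitochondrial genes, 0, 1 and 1 were higher and 0, 1 and 4 lower, of 3, 7 and 7 tested. Thus the assembly factors and regulators had median log2 ratios of 0.24, -0.05 and 0.30 and of -0.23, -0.07 and -0.67, while the subunits had 1.09, 0.80 and 0.95. Between days, 3 of the 13 citric acid cycle genes were called higher on Day 7 over Day 3, near the 19.5% of all genes tested, and 0 lower, and 0 were called either way on Day 14 over Day 7.

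Sdhaf1 to Sdhaf4 held few UMIs in muscle-rich spots. Sdhaf4, a chaperone of the flavoprotein, stood at 36.7, 45.0 and 35.6 CPM in all marked spots, and its log2 ratio in muscle-rich spots was 2.03 (1.14 to 2.85), 1.07 (0.05 to 1.94) and -0.58 (-1.92 to 0.49) on Days 3, 7 and 14. Sdhaf1, needed to insert the iron-sulphur clusters, had 57, 168 and 106 UMIs in all, of which 3, 2 and 2 lay in muscle-rich spots. The log2 ratios of -0.64 (-2.96 to 0.98), -1.20 (-4.26 to 0.68) and -1.80 (-4.86 to 0.09) therefore all had intervals that reached past 0.

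Outside muscle-rich spots, the members also varied between tissues. In each section, marked spots under 5% with at least 500 UMIs were ranked by a marker list, and the top 10% were set against the remaining spots. On Day 3, the 44 spots highest in slow fibre markers held 51954 CPM of members against 25633 CPM in the rest (log2 1.02, 0.97 to 1.07), and the 44 highest in white fat markers held 38186 against 25708 CPM (0.57, 0.53 to 0.61). On Days 7 and 14 these log2 ratios were 0.17 and 0.09 for slow fibre and 0.13 and 0.08 for white fat markers. Brown fat markers, a list that shares Cidea with the sebaceous gland list, gave 0.33, 0.18 and 0.21 on Days 3, 7 and 14. Of this list, 4, 7 and 5 genes were detected. Its gene Ucp1 had 0 UMIs in all spots of the Day 3 slide with at least 500 UMIs. On the Day 14 slide it had 1 UMI in muscle-rich and 6 in other such spots. Whether brown fat was present on Days 3 and 14 was not tested. On Day 3, the slow fibre spots had a median of 2.79% Acta1 plus Ckm against 1.06%, and the white fat spots 1.47% against 1.13%. Spots highest in sebaceous gland markers on Day 3 had a log2 ratio of 0.21 at a lower muscle share of 0.862% against 1.18%, with 0.13 on Day 7 and -0.04 on Day 14. Fibroblast-rich spots were lower, at 19188 against 28379 CPM on Day 3 (-0.56, -0.61 to -0.52), at -0.29 on Day 7 and at -0.21 on Day 14, with median muscle shares of 0.704, 0.890 and 1.77% against 1.24, 2.39 and 2.28%. Epidermis-rich spots stood at -0.38 on Day 3, -0.05 on Day 7 and -0.37 on Day 14. Macrophage-rich spots were at -0.34, -0.23 and -0.08. On Day 14, the 59 spots highest in red cell markers held 38867 against 24801 CPM (0.65, 0.61 to 0.68), and their median muscle share was 3.95% against 2.13%. For the same markers the log2 ratio was -0.00 (-0.05 to 0.04) on Day 3 and 0.31 on Day 7. In spots under 1% on Day 3, ranked in the same way, the slow fibre ratio was 0.09 (-0.00 to 0.18). White fat markers gave 0.45 there, sebaceous gland markers 0.46 and brown fat markers 0.37. Fibroblast, macrophage, epidermis and red cell markers gave -0.34, -0.15, -0.10 and -0.16 in those spots. Median muscle shares were then 0.762 against 0.668% for white fat and 0.605 against 0.689% for sebaceous gland markers. Among the 56 such spots of Day 7, white fat markers gave 0.015 (-0.05 to 0.08) and brown fat markers 0.014 (-0.04 to 0.07). Sebaceous gland and slow fibre markers gave 0.11 and 0.05 on Day 7. Fibroblast, macrophage, epidermis and red cell markers gave -0.10, -0.05, -0.01 and 0.07. Day 14 had 14 such spots, so that each list took 1 spot. The part of the remaining muscle RNA in these differences was not tested.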

How the data were processed

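The data were unnormalized UMI counts per gene and spot, deposited by the authors as 1 matrix for each of 3 Visium sections, with tables of spot positions. Per the submitters' processing notes, Space Ranger 1.3.0 and mm10 were used; the annotation is not given in the sources used here, and gene positions are from GENCODE M21. Doublets were not called, because a spot covers more than 1 cell. Reads that map to several copies of a gene can be lost in such counting, and its extent was not measured.

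UMIs were summed over spots and divided by the total of the same spots (CPM). Intervals are exact at 95%, Poisson for CPM and conditional binomial for ratios and shares, and cover counting error only. The ratio intervals were run on simulated Poisson counts without spread between spots or sections. Such counts follow the model of the intervals, so that this run checks the calculation alone. With 1 section per day no p-value was computed. A gene counted as tested with at least 50 UMIs over the 2 sums and as called at 1.5-fold. The members and all lists were chosen with earlier results of these data known. Named members were the isoforms, the 2 with most UMIs in each complex, the members that are no subunits, and the 3 highest and 3 lowest in each comparison, by the end of the interval closer to a ratio of 1; others named were chosen after their values were seen. Alternatives were TMM factors (edgeR 4.0.16 in R 4.3.3), other totals, thresholds of 0.5, 2 and 5%, all spots of the slide, spots with at least 500 UMIs, means over spots, subunits alone and other count minimums. Python 3.11.15, numpy 2.4.6, scipy 1.17.1, pandas 2.3.3 and matplotlib 3.10.9 were used.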

Additional observations from a re-analysis of the deposited data

Results flagged for a closer look

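Atp5g2, 1 of the 3 genes of ATP synthase subunit c, stood out because its difference between muscle spots (at least 1% Acta1 plus Ckm) and other marked spots had opposite signs on 2 days. The log2 ratio was 0.37 on Day 3 (0.15 to 0.60) and -0.19 on Day 7 (-0.35 to -0.02), and with muscle-rich spots at 5% it was 0.50 and 0.47. With 1 section per day, this difference was not tested.

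Spots outside the marked tissue, which entered the days' comparisons only where all spots of the slide were taken, held a larger share of member UMIs than the marked spots. The members summed to 48837 CPM there for Day 3, 41550 for Day 7 and 37750 for Day 14, with log2 ratios over the marked spots of 0.73, 0.60 and 0.48. Most of these spots were shallow, with medians of 91, 453 and 350 UMIs. Of 4328, 4443 and 4295 such spots, 3654, 2325 and 2515 held under 500 UMIs. Together, however, they held 1703210, 6457066 and 4715272 UMIs, or 96.1, 145 and 102% of the totals of the marked spots. Whether tissue lay under them was not tested. The summed muscle isoforms stood at 3.41, 1.36 and 3.13 UMIs per UMI of the common isoforms there.

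On the Day 7 slide, 110 spots with at least 500 UMIs held Ucp1, the uncoupling protein of brown fat, at 0.1% of UMIs or more, and 2 of these were marked as tissue. No spot of the Day 3 or Day 14 slide met this threshold, which was chosen after the data were seen. The members summed to 73876 CPM in the Ucp1 spots (73169 to 74587), against 43644 CPM in 964 muscle-rich spots without them and 30080 CPM in the other spots of that slide. Here the muscle-rich and other spots were taken from the whole slide, marked or not, with at least 500 UMIs each. Of the 964 muscle-rich spots, 52 were marked as tissue, so that this class is wider than the muscle-rich spots above. The isoforms of complex IV had another make-up in the Ucp1 spots. Cox6a1 stood at 2152 CPM and Cox8a at 2219 CPM, against 168 and 300 CPM in the muscle-rich spots. Cox7a1 and Cox8b, called muscle isoforms here, were higher than in the muscle-rich spots, at 1082 and 3126 CPM against 515 and 1326 CPM. Cox6a2 stood at 237 CPM against 1528 CPM, so that 0.110 UMIs of Cox6a2 were counted per UMI of Cox6a1, against 9.11 in the muscle-rich spots. These were values of 1 slide, and the differences were not tested.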

How the results depend on the processing

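All values here are log2 ratios of the summed members unless named otherwise. Limits were as follows. Each day rests on 1 section, so that section and day cannot be told apart. The spots under 1% on Day 14 held 3449 member UMIs in 16 spots. No paired analysis was possible because each day had 1 section. Using only spots with at least 500 UMIs, or only the 84 subunits, moved none of these values by more than its counting interval.

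With TMM factors, Day 14 over Day 3 and Day 14 over Day 7 were -0.22 and -0.12 over all marked spots. Without muscle spots, Day 7 over Day 3, Day 14 over Day 3 and Day 14 over Day 7 were 0.15, -0.33 and -0.49. Muscle over other spots was 1.26 on Day 3 and 0.28 on Day 7. Over all spots of the slide, the 3 pairs of days in the same order were -0.12, -0.26 and -0.14. Without muscle spots, Day 7 over Day 3 was 0.89 and Day 14 over Day 7 was -1.02. Muscle over other spots was 1.07, -0.38 and 0.59 on Days 3, 7 and 14, which turned the sign of Day 7. The log2 odds ratio of the muscle isoforms was 2.84 on Day 3 and 2.64 on Day 14, against 3.08 and 2.06.

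Without mitochondrial genes in the total, Day 7 over Day 3 was -0.15 and Day 14 over Day 7 was 0.00714 over all marked spots, Day 7 over Day 3 without muscle was 0.018, and muscle over other spots was 1.0 on Day 3 and 0.34 on Day 7. Without the muscle marker lists in the total, muscle over other spots was 1.03, 0.37 and 0.53 on Days 3, 7 and 14. As means over spots, Day 7 over Day 3 was -0.13 and Day 14 over Day 3 was -0.15 over all marked spots, Day 7 over Day 3 without muscle was 0.11, and muscle over other spots was 0.47 on Day 7 and 0.69 on Day 14. Of the values of single members, 4 changed sign in means over spots: Atp5g3 in spots under 1% on Day 14 over Day 3 at 0.93, and in muscle over other spots on Day 14 at -0.51, and Cox6b1 and Ndufa3 in spots under 1% on Day 14 over Day 7 at 0.058 and 0.20. Their causes were not tested.

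With muscle spots at 0.5% or more, Day 7 over Day 3 without muscle was -0.65 (-5.95 to 1.83), muscle over other spots was 0.48 on Day 3 and 0.94 on Day 7 (-1.54 to 6.25), where 1 spot with 70 UMIs was left below the threshold, and the Day 3 isoform log2 odds ratio was 2.75. No value for Day 14 could be had at 0.5%. At 2%, Day 14 over Day 3 and Day 14 over Day 7 without muscle were 0.018 and -0.046, muscle over other spots was 1.23, 0.36 and 0.39 on Days 3, 7 and 14, and the isoform log2 odds ratio was 3.34 on Day 3 and 1.25 on Day 7. At 5%, chosen after the data were seen, the 3 pairs of days without muscle were -0.0021, -0.079 and -0.077, muscle over other spots was 1.16, 0.91 and 1.01, and the isoform log2 odds ratio was 2.85, 2.52 and 2.82.

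Of 90 counts of members past 1.5-fold, 15 changed by more than 1.5 times. With TMM factors, members called lower in spots under 1% numbered 25 instead of 15 on Day 14 over Day 3 and 34 instead of 17 on Day 14 over Day 7. On Day 7 over Day 3 in those spots, 7 instead of 3 were higher and 0 instead of 2 lower. Muscle spots on Day 3 had 1 instead of 3 lower, and 5 with no minimum. On Day 14 over Day 7 over all marked spots, 1 instead of 2 was higher with TMM factors. With a minimum of 100 UMIs, 0 instead of 2 were higher on Day 7 over Day 3 and 0 instead of 1 on Day 14 over Day 3 over all marked spots, and in spots under 1% 1 instead of 2 on Day 14 over Day 3 and 0 instead of 1 on Day 14 over Day 7. With a minimum of 20 or none, the last of these was 2, and 1 instead of 0 was lower in muscle spots on Day 7. The cause was not tested.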
